A study of Homo sapiens with 6 samples.

Results

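The collagens, laminins and basement membrane proteins were taken as every gene whose symbol in the platform annotation is a collagen alpha chain or a laminin chain, plus NID1, NID2, HSPG2 and AGRN. This gave 53 genes of the 17687 measured, each read by 1 probe set; family members outside that annotation were not analysed here. The cells were A375, an established human melanoma line, grown with fetal bovine serum. One group of 3 arrays came from cells transfected with an siRNA against ERK3, the atypical MAP kinase encoded by MAPK6 (siERK3), and the other of 3 from cells given a negative control siRNA (siCon). All RNA was taken 3 days after transfection, both groups received the same transfection reagent, and the measure is total RNA on Clariom S Pico arrays.

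A basement membrane is a thin sheet of matrix to which cells attach. Laminins, trimers of an alpha, a beta and a gamma chain, assemble into one network near the cell surface, and type IV collagen forms another. Nidogens bind the gamma chain LAMC1 and type IV collagen and so bridge the networks, while the heparan sulfate proteoglycans perlecan (HSPG2) and agrin (AGRN) bind growth factors and cell surface receptors. Melanoma cells make many of these proteins themselves, and they also meet fibril-forming collagens secreted largely by fibroblasts in the dermis.

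After ERK3 knockdown NID1 rose, and it was the member of the 53 that passed limma's test over all genes. The other 52 did not pass. The NID1 signal was 2.05-fold higher in siERK3 than in siCon, a call that needed all 6 arrays. The gene with the largest difference in the other direction was COL4A1, at a log2 change of -0.72, which did not pass. The laminin chains LAMA4, LAMB1 and LAMC1 had log2 changes between -0.11 and 0.02.

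Upstream sequences are shown for NID1, the gene that rose, for LAMC1, the laminin chain it binds, and for the stretch between COL4A1 and COL4A2, which start back to back. RefSeq promoter windows (GRCh38.p14) matched 39 of the 53 genes. Lower case letters are plain sequence, and capitals mark matches, on either strand, to the letters of 4 textbook promoter motifs. The GC box was searched as GGGCGG. The CCAAT box was searched by its own 5 letters. For the TATA box TATAAA was used, and the AP-1 site was spelled TGACTCA. The NID1 and LAMC1 sequences are the 250 bases before the start of the gene, on the gene's strand, at chr1:236065091-236065340 (minus strand) and chr1:183023170-183023419 (plus strand). The third is the whole of the 126 bases between the starts of COL4A1 and COL4A2, at chr13:110307158-110307283, on the plus strand, which is the strand of COL4A2.
NID1: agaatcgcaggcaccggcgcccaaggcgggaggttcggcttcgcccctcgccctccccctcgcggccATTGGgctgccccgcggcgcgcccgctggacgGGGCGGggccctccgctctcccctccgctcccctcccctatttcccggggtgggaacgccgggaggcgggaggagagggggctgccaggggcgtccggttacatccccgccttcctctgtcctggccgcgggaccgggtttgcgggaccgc
LAMC1: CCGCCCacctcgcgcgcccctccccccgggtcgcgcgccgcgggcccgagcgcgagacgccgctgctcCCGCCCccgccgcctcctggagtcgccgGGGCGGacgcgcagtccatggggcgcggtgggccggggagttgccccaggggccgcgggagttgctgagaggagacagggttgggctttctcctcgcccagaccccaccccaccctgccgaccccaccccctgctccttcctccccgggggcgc
COL4A1-COL4A2: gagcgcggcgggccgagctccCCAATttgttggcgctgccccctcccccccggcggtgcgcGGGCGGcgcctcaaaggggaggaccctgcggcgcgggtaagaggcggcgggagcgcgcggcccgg

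All 3 stretches are rich in G and C, at 76.4% for NID1, 79.6% for LAMC1 and 80.2% between the COL4 genes. NID1 and the COL4A1-COL4A2 stretch each hold 1 GC box and 1 CCAAT box, and LAMC1 holds 3 GC boxes. The GC box letters occur in 42.6% of all 35116 windows of 250 bases and in 34.6% of the 126 bases nearest each start, and the CCAAT letters in 32.0% and 21.1%. Among the 39 matched members 26 (66.7%) hold a GC box, 13 (33.3%) a CCAAT box, 5 (12.8%) a TATA box and 0 an AP-1 site. Of all windows of 250 bases 10.7% hold the TATA letters and 4.20% the AP-1 letters. A member was counted when any of its windows held the motif, whereas the shares of all windows count each window singly. The units therefore differ, and the shares of members and of windows are not directly comparable. No motif of the 4 overlaps another within the stretches printed.

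The knockdown was visible in the target. MAPK6 lay at 10.54, 10.32 and 10.67 on the siERK3 arrays, against 13.45, 13.55 and 13.62 on the siCon arrays, on the log2 scale. Array medians lay between 7.06 and 7.10, and siERK3 3 and siCon 2 stood apart on the second principal component, at -15.2 and -26.5, from the other 4 arrays (4.35 to 21.7). The calls of NID1 and LUM below are therefore also given without 1 array at a time. Nothing in the labels ties a replicate to its own culture, and p-values therefore reflect only how far these arrays scatter. The background on each array was set at the 95th percentile of its negative control probe sets, 7.32 to 7.56 on the log2 scale. Of the 53 genes, 18 lay above it on all 6 arrays (34.0%, against 43.7% of all genes) and 35 below it on all 6. In bulk RNA, fewer cells that make a transcript and less of it per cell cannot be told apart.

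NID1 encodes nidogen-1, the glycoprotein that links laminin to type IV collagen. Its values were 14.11, 14.23 and 14.41 in siERK3, against 13.14, 13.19 and 13.33 in siCon (log2). All 3 siERK3 arrays lay above all 3 siCon arrays, and the lowest siERK3 value exceeded the highest siCon value by more than the range within either group. The means were 14.25 ± 0.15 in siERK3 and 13.22 ± 0.10 in siCon (SD, n = 3 each, as for all means below). The fitted log2 difference was 1.03 (SE 0.14), with limma giving an adjusted p of 0.0167, and the 95% interval ran from 1.64-fold to 2.55-fold. By p, NID1 ranked 48 of 17687 genes. The exact two-sided permutation test gave p = 0.1, the smallest that 3 against 3 arrays allow.

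The NID1 call needed all 6 arrays. With siERK3 1, siERK3 2 or siERK3 3 left out its adjusted p in limma was 0.0585, 0.0857 or 0.0788, and without siCon 1, siCon 2 or siCon 3 it was 0.0730, 0.0544 or 0.0615. The log2 change itself stayed between 0.95 and 1.10 in those fits. Without moderation of the variance the adjusted p was 0.106, over a range of 4.35e-06 to 0.106 across the settings other than leaving out an array. The plot of adjusted p by setting shows these values.

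**Figure D1:**
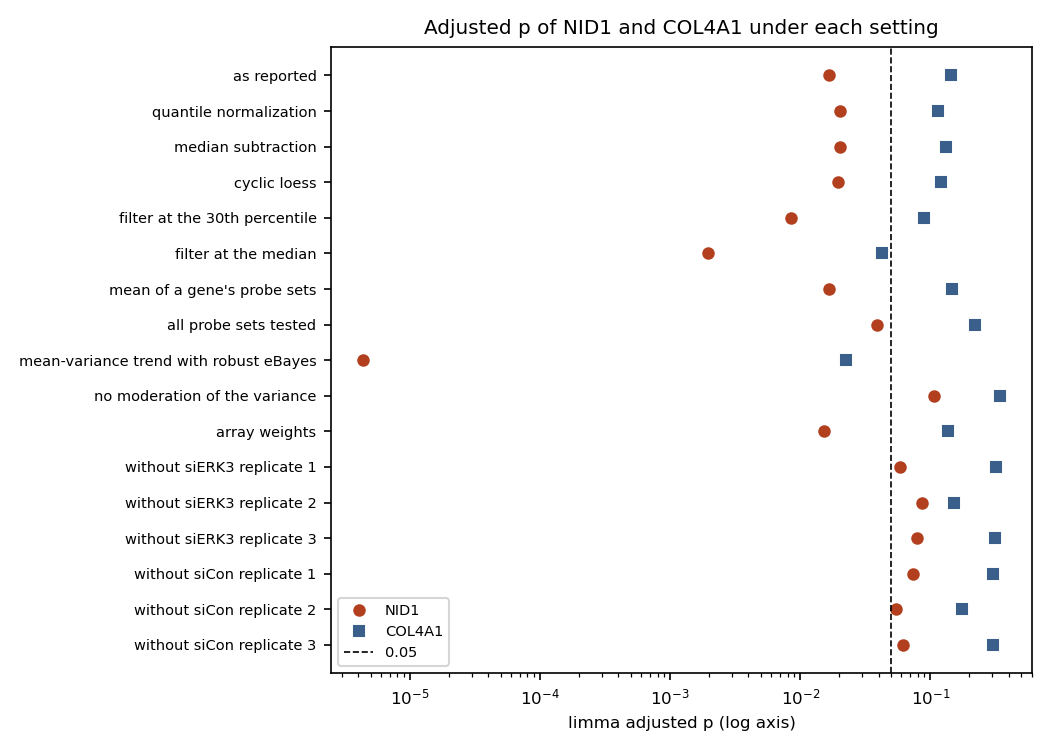
Adjusted p in limma (x axis, log scale) for NID1 (circles) and COL4A1 (squares) under the reported fit, 10 of the 11 other settings (all but the replicate number as a block) and with each array left out (rows); the dashed line is 0.05. NID1 lies between 0.0544 and 0.0857 whenever 1 array is left out, and COL4A1 crosses the line with the filter at the median and with the mean-variance trend.

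Of the 53 genes 1 was called higher, against 0.447% of all 17687 genes called higher, and 0 were called lower, against 0.509% of all genes. Unadjusted p fell under 0.05 for 6 members, 4 of them higher and 2 lower, together 11.3%, against 13.5% of all genes. The groups did not overlap for 7 of the 53 (13.2%), against 19.8% of all genes. Of these 7, 6 were higher, against 10.1% of all genes without overlap and higher, and 1 was lower, against 9.70%. Both pooled shares of members lay below those of all genes, and the share without overlap and higher, 11.3%, lay near that of all genes. Members were less often above background than all genes. Among genes above background on all 6 arrays, unadjusted p fell under 0.05 for 16.7% of the 18 members and 17.7% of all such genes. The groups did not overlap for 22.2% of these members and 29.5% of all such genes. The median log2 change was 0.02 over the 53 and 0.00 over all genes, with 28 members above zero and 25 below. For 22 members the 95% interval of the change lay within 1.5-fold in both directions. Of these, 10 lay above background on all 6 arrays. The other 12 lay below it on all 6, where a narrow interval does not show that a transcript kept its level.

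**Figure D2:**
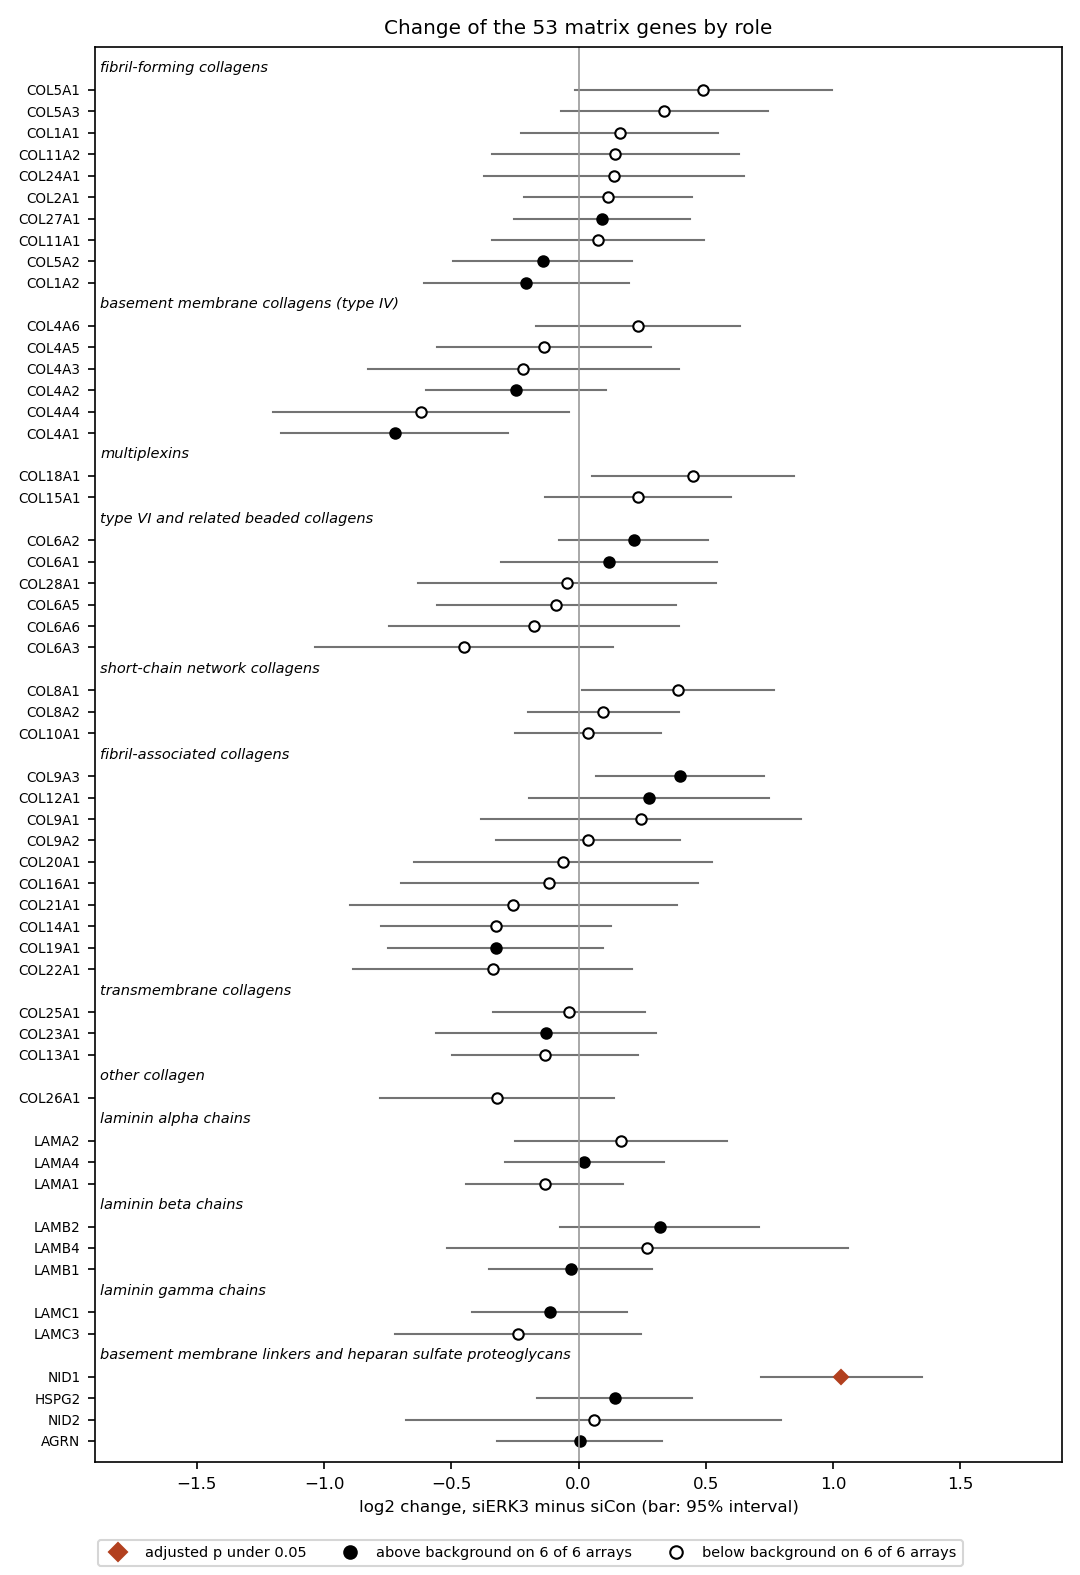
Log2 change, siERK3 minus siCon (x axis), of each of the 53 genes, with its 95% interval from limma, grouped by role; filled symbols lie above background on all 6 arrays, open ones below it, and the diamond passed the test. NID1 stands at 1.03 with an interval from 0.72 to 1.35, while COL4A1 stands at -0.72.

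The remaining linkers and proteoglycans did not pass. NID2, the paralog of NID1, lay below background on all 6 arrays, at a mean of 4.60 ± 0.38 in siERK3 and 4.54 ± 0.68 in siCon (log2). HSPG2 averaged 9.58 ± 0.12 in siERK3 and 9.44 ± 0.09 in siCon, a log2 change of 0.14 (SE 0.13). AGRN averaged 8.42 ± 0.15 in siERK3 and 8.41 ± 0.13 in siCon. For both proteoglycans the 95% interval stayed within 1.5-fold. Those intervals end at 0.45 for HSPG2 and 0.33 for AGRN on the log2 scale, below the lower end of the NID1 interval at 0.72; the contrast between genes was not tested.

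Laminin chains above background were LAMA4, LAMB1, LAMB2 and LAMC1. LAMA4 is the alpha chain known from vessel and mesenchymal laminins, and LAMB1 and LAMC1 are the beta and gamma chains shared by most laminins. LAMA4 read 12.38, 12.42 and 12.17 in siERK3, against 12.42, 12.20 and 12.29 in siCon. LAMB1 read 14.05, 14.38 and 14.23 in siERK3, against 14.32, 14.29 and 14.14 in siCon. LAMC1 read 14.93, 14.93 and 15.03 in siERK3, against 15.16, 14.92 and 15.16 in siCon. In each of these chains the groups overlapped.

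The intervals show how large a change in these chains could still be. LAMA4 changed by 0.02 on the log2 scale (95% interval -0.29 to 0.34) and LAMB1 by -0.03 (-0.35 to 0.29). For LAMC1, which holds the nidogen binding site, the difference was -0.11 (-0.42 to 0.19). The NID1 interval, 0.72 to 1.35, lies above all 3 of these intervals. NID1 was singled out by its own change, however, and the contrast between genes was not tested. LAMB2, a beta chain of nerve, muscle and kidney basement membranes, averaged 8.65 ± 0.14 in siERK3 and 8.33 ± 0.28 in siCon, a log2 difference of 0.32 (SE 0.17) for which limma gave an adjusted p of 0.484. The alpha chains LAMA1 and LAMA2, the beta chain LAMB4 and the gamma chain LAMC3 lay below background on all arrays, with log2 changes between -0.24 and 0.27.

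**Figure D3:**
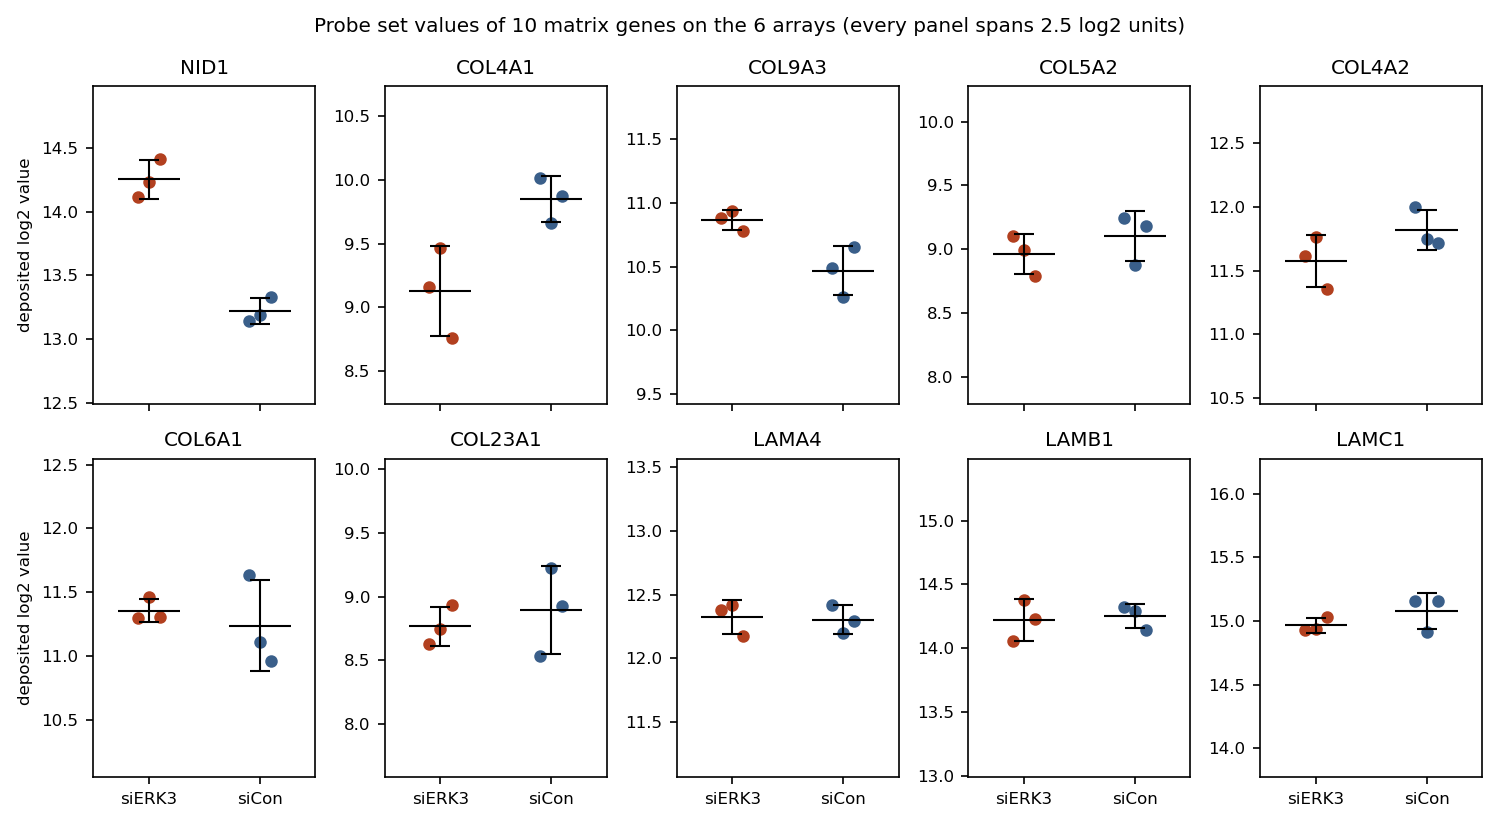
Deposited log2 values (y axis) of the 10 genes described array by array, siERK3 at left and siCon at right in every panel; points are arrays, the bar is the mean and the whiskers are the SD (n = 3). NID1, COL4A1 and COL9A3 show no overlap between groups, while the points of the other 7 genes overlap.

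Type IV collagen is the network-forming collagen of basement membranes. COL4A1 and COL4A2 encode the chains of its most widespread trimer and start back to back from the stretch printed above. COL4A1 read 9.16, 9.46 and 8.76 in siERK3, against 10.01, 9.66 and 9.87 in siCon. The siERK3 values all lay below the siCon values. With a log2 difference of -0.72 (SE 0.20; 95% interval -1.17 to -0.28) and a limma adjusted p of 0.145, COL4A1 did not pass. The difference ran from -0.89 to -0.54 when 1 array was left out. COL4A1 passed when tested only among genes above the median level (adjusted p 0.0428 in limma) and with a mean-variance trend and robust eBayes (0.0225), over a range of 0.0225 to 0.344 across settings.

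COL4A2 read 11.61, 11.76 and 11.36 in siERK3, against 12.00, 11.75 and 11.72 in siCon. These groups overlapped, with a log2 change of -0.25 (95% interval -0.60 to 0.11). The difference between both probe sets on the same array was compared between groups only, since its size depends on the probes. COL4A1 minus COL4A2 was -2.46, -2.30 and -2.60 in siERK3, against -1.99, -2.09 and -1.84 in siCon. The groups did not overlap in it, and siERK3 minus siCon was -0.48 on the log2 scale (exact two-sided permutation p = 0.1, the smallest possible). The pair was followed in this way after its values were seen. Of the other type IV chains COL4A3, COL4A4, COL4A5 and COL4A6, none lay above background. The log2 changes of COL4A3, COL4A5 and COL4A6 were -0.22, -0.14 and 0.23. COL4A4 averaged 4.87 in siERK3 and 5.49 in siCon, and its limma adjusted p was 0.341.

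Among the fibril-forming collagens, which make the cable-like fibrils of connective tissue, 3 of 10 lay above background and 0 passed. COL5A2, a chain of the type V collagen that regulates fibril diameter, read 9.10, 8.99 and 8.79 in siERK3, against 9.25, 8.88 and 9.18 in siCon. The groups overlapped, and the log2 change was -0.14 (95% interval -0.49 to 0.21). COL1A2, a type I chain, averaged 7.90 ± 0.29 in siERK3 and 8.11 ± 0.17 in siCon, and COL27A1 averaged 7.98 ± 0.15 in siERK3 and 7.89 ± 0.19 in siCon. The partner of COL1A2 in type I collagen, COL1A1, lay below background at 5.47 in siERK3 and 5.31 in siCon. So did COL2A1, COL5A1, COL5A3, COL11A1, COL11A2 and COL24A1, with COL5A1 the highest of their changes at 0.49 (adjusted p 0.389 in limma).

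The type VI collagens form beaded filaments next to basement membranes. COL6A1 read 11.30, 11.46 and 11.31 in siERK3, against 11.64, 11.11 and 10.96 in siCon, and the siERK3 values lay inside the siCon range. Its log2 change was 0.12 (SE 0.19). COL6A2, the gene of a chain that assembles with it, averaged 9.33 ± 0.12 in siERK3 and 9.11 ± 0.03 in siCon; its groups did not overlap, and its log2 difference was 0.22 (limma adjusted p 0.533). COL6A3, COL6A5, COL6A6 and the related COL28A1 lay below background, with changes from -0.45 to -0.05.

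Fibril-associated collagens sit on the surface of fibrils, and 3 of 10 lay above background. COL9A3, a chain of cartilage type IX collagen, read 10.88, 10.94 and 10.78 in siERK3, against 10.49, 10.26 and 10.65 in siCon. All siERK3 values were above all siCon values, but with a log2 difference of 0.40 (SE 0.15; 95% interval 0.07 to 0.73) and a limma adjusted p of 0.278 the gene did not pass. Its partner chains COL9A1 and COL9A2 lay below background. COL12A1 averaged 8.76 ± 0.20 in siERK3 and 8.48 ± 0.38 in siCon, and COL19A1 averaged 9.58 ± 0.31 in siERK3 and 9.91 ± 0.19 in siCon, with log2 changes of 0.28 and -0.32. COL14A1, COL16A1, COL20A1, COL21A1 and COL22A1 were below background in both groups, with log2 changes from -0.34 to -0.06.

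The transmembrane collagens are anchored in the cell membrane. COL23A1 read 8.63, 8.74 and 8.93 in siERK3, against 8.53, 9.23 and 8.92 in siCon, with all siERK3 values inside the siCon range and a log2 change of -0.13 (SE 0.19). COL13A1 and COL25A1 lay below background, with log2 changes of -0.13 and -0.04. So did the multiplexins COL15A1 and COL18A1, which carry heparan or chondroitin sulfate chains in basement membranes, the short-chain collagens COL8A1, COL8A2 and COL10A1, and COL26A1. COL18A1, which holds the endostatin fragment, averaged 6.03 ± 0.05 in siERK3 and 5.58 ± 0.32 in siCon, and COL8A1 averaged 6.82 ± 0.12 in siERK3 and 6.44 ± 0.27 in siCon. Their adjusted p of 0.311 and 0.357 in limma did not pass. The log2 changes of COL15A1, COL8A2, COL10A1 and COL26A1 were 0.23, 0.10, 0.04 and -0.32. Values of the 35 genes below background ran from 2.68 to 7.12, a range in which a lower level could not be told from none.

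**Figure D4:**
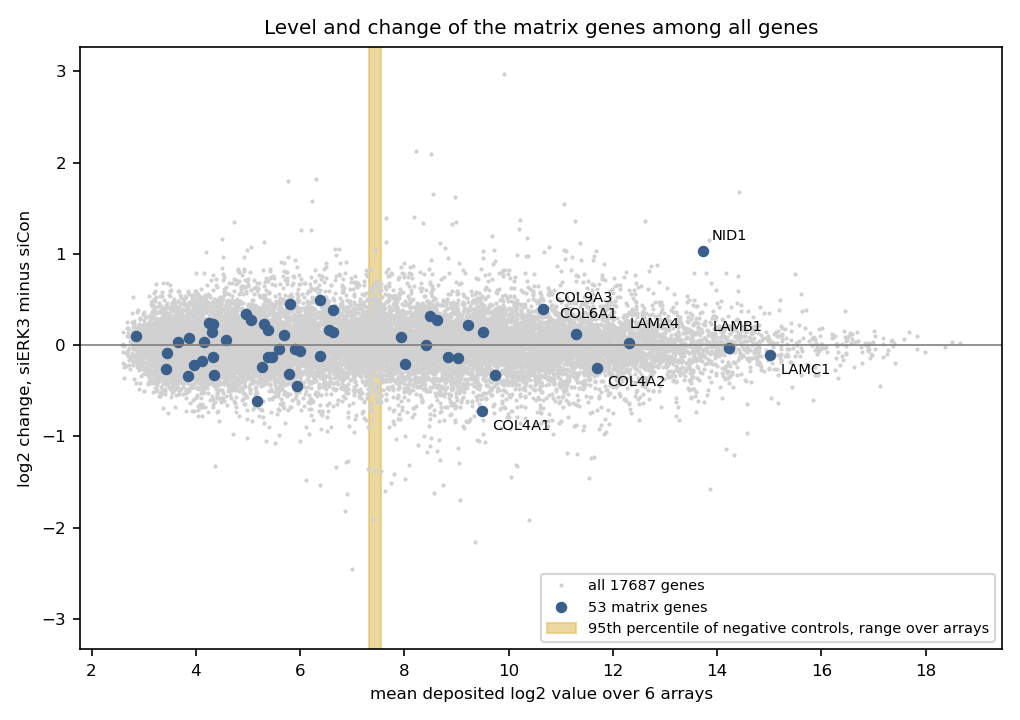
Mean deposited log2 value over 6 arrays (x axis) against log2 change, siERK3 minus siCon (y axis), for all 17687 genes (grey) and the 53 matrix genes (blue); the vertical band is the range over arrays of the negative controls' 95th percentile. NID1 stands at a change of 1.03, and 35 of the 53 genes lie left of the band.

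Genes that modify, secrete, cleave, crosslink or bind these proteins were followed in 7 lists with 77 measured genes. In limma 0 of the 77 passed over all genes in either direction, while unadjusted p fell under 0.05 for 9 higher and 9 lower ones, or 23.4% against 13.5% of all genes. Over all genes above background on all 6 arrays, in these lists or not, that share was 17.7%. Of the 77, 41 lay above background on all 6 arrays, a larger share than the 43.7% of all genes. Of the 9 higher and 9 lower genes, all but P3H2, ADAMTS3, LAIR1, NPNT and SMOC1 lay above background on all 6 arrays. The lists were chosen with earlier results known, and the difference in shares was not tested. The median log2 change over the 77 was 0.00, as over all genes. Among enzymes that hydroxylate collagen, PLOD1, a lysyl hydroxylase, averaged 13.36 in siERK3 and 12.95 in siCon (adjusted p 0.182 in limma). P3H2, a prolyl hydroxylase that acts on type IV collagen, read 6.60, 7.22 and 7.01 in siERK3, against 5.89, 6.01 and 6.24 in siCon, below background on all arrays (adjusted p 0.0712).

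In the folding and secretion list SERPINH1, the collagen chaperone HSP47, read 10.48, 10.58 and 10.32 in siERK3, against 9.94, 9.55 and 9.79 in siCon. Its groups did not overlap, with a log2 difference of 0.70 (SE 0.15) and a limma adjusted p of 0.0774. SEC24D, a coat protein of vesicles that carry procollagen, had a log2 change of -0.44 (adjusted p 0.219). In the cleavage list PCOLCE, an enhancer of procollagen C-proteinase, averaged 12.44 ± 0.12 in siERK3 and 11.82 ± 0.19 in siCon, a log2 change of 0.62 (adjusted p 0.108 in limma). ADAMTS3, a procollagen N-proteinase, lay below background at 5.61 in siERK3 and 6.19 in siCon. The crosslinking list, with LOXL3 at -0.33 and TGM2 at -0.22, had 0 of 6 genes at an unadjusted p under 0.05 in limma.

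Receptors were measured in the same cells. ITGA6, the laminin-binding integrin alpha chain, averaged 13.22 ± 0.06 in siERK3 and 13.71 ± 0.11 in siCon, a log2 difference of -0.49 (SE 0.13) at a limma adjusted p of 0.136. ITGB1, the beta chain with which it and the collagen-binding integrins pair, had a log2 change of -0.39 (SE 0.14, limma adjusted p 0.274). The collagen-binding chain ITGA2 had one of -0.44 (SE 0.15, limma adjusted p 0.246). In all 3 the siERK3 arrays lay below the siCon arrays, as for 9.70% of all genes. These 3 were named for their small p, which favours groups without overlap. They also lay above background on all 6 arrays. Among all such genes 29.5% did not overlap in either direction, against 19.8% of all genes. In the laminin receptor list ITGA3 was also lower without overlap, at -0.33, while CD151 was higher without overlap, at 0.26. None of these receptors passed. LAIR1, an inhibitory collagen receptor of leukocytes, lay below background in both groups. Of the other basement membrane proteins, TINAGL1, a tubulointerstitial nephritis antigen-like glycoprotein, read 11.00, 10.94 and 10.99 in siERK3, against 11.58, 11.73 and 11.59 in siCon. The log2 difference was -0.66 (SE 0.13) and just missed the threshold, at a limma adjusted p of 0.0563. FN1, which encodes fibronectin, averaged 12.35 in siERK3 and 11.82 in siCon, a log2 difference of 0.53 (SE 0.14) at a limma adjusted p of 0.145.

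**Figure D5:**
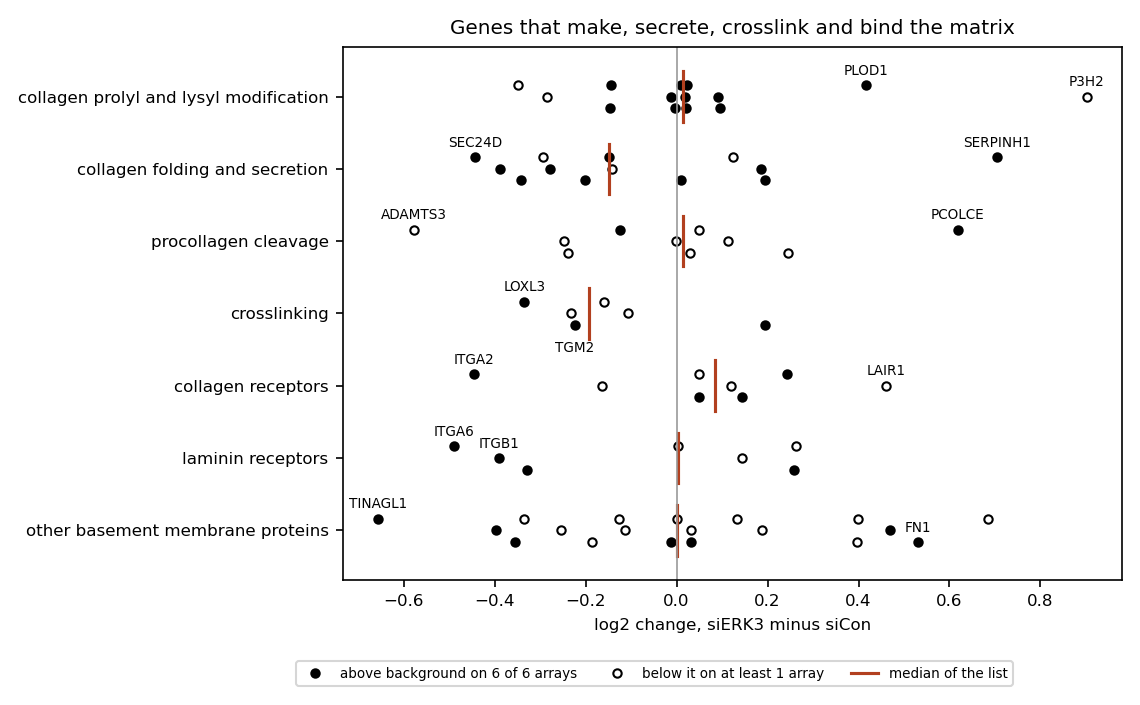
Log2 change, siERK3 minus siCon (x axis), of the measured genes in each of the 7 lists (rows); filled points lie above background on all 6 arrays, open ones do not, the red bar is the list median, and the genes with the smallest p are named. None of these genes passed, and the list medians lie between -0.19 and 0.09.

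Markers of other cell types that make matrix were examined beside these results. Of 9 fibroblast markers 1, LUM, lay above background on all arrays, and it fell by 0.83 on the log2 scale (adjusted p 0.0441 in limma). That call was lost without any 1 of the 6 arrays, at adjusted p of 0.0825 to 0.157. FAP, below background on all arrays, averaged 5.40 in siERK3 and 4.43 in siCon, a log2 difference of 0.97 (limma adjusted p 0.154) without overlap between groups. PDGFRB lay above background on 3 siERK3 arrays, at a mean of 7.66, and on 0 siCon arrays, at a mean of 6.91, a log2 difference of 0.75 (limma adjusted p 0.0631). The remaining markers, FAP among these 7, lay above it on none. The mean level of the fibroblast list ran from 5.64 to 5.97 in siERK3 and from 5.58 to 5.81 in siCon. The 7 endothelial, 7 keratinocyte and 3 Schwann cell markers lay below background on all arrays, the endothelial list at 4.81 to 4.91 in siERK3 and 4.79 to 4.95 in siCon. Of 6 leukocyte markers, LYZ and CD68 lay above background, with log2 changes of -0.85 and -0.47, while the pan-leukocyte gene PTPRC did not. Neither LYZ nor CD68 passed, at limma adjusted p of 0.0965 and 0.152. Of 8 melanocyte lineage markers 3 lay above background, MITF among them at 9.60 in siERK3 and 9.77 in siCon. Their part in the NID1 result was not tested.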

How the data were processed

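The values deposited by the authors are log2 signals, 1 for each probe set on each of 3 siERK3 and 3 siCon arrays. The scale was read from the values; the sources used here do not state how they were corrected, summarised and normalized. The zero point of the scale and any stretch of it are unknown, and folds would depend on a stretch. The platform annotation gave 1 gene symbol for 17709 of 24351 probe sets; for genes with several, the one with the highest mean over all arrays was used, leaving 17687 genes, without a filter. limma 3.58.1 (R 4.3.3; lmFit and eBayes, without covariates) gave siERK3 minus siCon for every gene, with p adjusted over all genes by Benjamini-Hochberg, a threshold of 0.05 and intervals from the moderated fit. The script was tested on simulated data.

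The members and lists were chosen with earlier results of these data known. Array values are given for members past the threshold, members above background at an unadjusted p under 0.05, and the brightest siCon member of each role above background. For each pathway list, up to 2 genes with the smallest p are named, only some of them with array values. Members and list genes outside this rule were named after their values were seen. A probe set's level depends on its probes, so this choice by brightness says nothing of which transcript is more abundant. The number of arrays limits the precision. Alternatives were other normalizations, filters, variance models, array weights, probe set choices, the replicate number as a block, other background levels and each array left out.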

Additional observations from a re-analysis of the deposited data

How the results depend on the processing

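The median log2 change of the 53 genes ranged from 0.01 to 0.02 over 11 settings and from 0.00 to 0.06 with 1 array left out. NID1 stayed positive in all of them, at 1.00 to 1.03 and 0.95 to 1.10, while its call was lost without moderation (0 members called higher) and with any 1 array left out (again 0); COL4A1 became 1 member called lower with the filter at the median and with the mean-variance trend. Over all genes, against 79 higher and 90 lower, the filter at the 30th percentile called 184 and 181, the filter at the median 281 and 300, the trend 343 and 379, the test of all probe sets 29 and 41, and no moderation 4 and 4; with 1 array left out 9 to 30 were higher and 13 to 30 lower. Genes near 0 changed sign: LAMB1 gave 0.0047 with array weights, and with 1 array left out LAMB1 ran from -0.110 to 0.0530, LAMA4 from -0.0296 to 0.0984, COL6A1 from -0.0196 to 0.319 and COL23A1 from -0.308 to 0.0382; the cause was not tested. In the same fits COL4A2 ran from -0.338 to -0.137, COL5A2 from -0.251 to -0.0548 and LAMC1 from -0.195 to -0.0723. The markers LUM, PDGFRB and FAP were added after seeing the data; LUM lost its call with all probe sets tested (adjusted p 0.0828 in limma) and without moderation (0.155), and PDGFRB, at 0.0631, passed in 4 settings, at 0.0109 to 0.0476. With the negative controls' 99th percentile as background 7 genes lay above it on all arrays, and with their median 38. With the replicate number as a block, 11 genes were higher and 22 lower, 0 members were called higher, and NID1 kept a log2 change of 1.03 with an adjusted p of 0.0604 in limma and LUM its change with 0.136. Same-numbered arrays deviated together with correlations of 0.05, -0.12 and -0.04, and arrays did not all correlate best with their own number, so nothing shows that the numbers pair the samples.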
